A study of Homo sapiens with 22 samples.

Results

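The interferon regulatory factors (IRFs) IRF1, IRF2, IRF3, IRF5, IRF7 and IRF9 and the feedback inhibitors SOCS1 and SOCS3 are 8 genes, chosen by symbol, that were followed through the 4 gene tables of a study of HN-6, a human cell line from a squamous carcinoma of the head and neck region. Each of the 8 genes had a line in every table, among 17400 genes with a line in the SMYD3 knockout table, 60539 in the SMYD3 siRNA table and 57316 each in the SMYD3 ASO and UHRF1 siRNA tables. All 8 passed the filter on low values in all 4 comparisons.

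Poly(A) RNA was sequenced in 22 libraries that form 8 groups. SMYD3, a lysine methyltransferase, was removed or depleted in 3 ways. The SMYD3 knockout line 5-3 (3 libraries) was set against parental HN-6 cells (3 libraries). HN-6 cells transfected for 72 h with a SMYD3 siRNA (3 libraries) were set against cells with a control siRNA (3 libraries), and cells given the SMYD3 antisense oligonucleotide (ASO) 081 for 72 h (2 libraries) against cells given phosphate-buffered saline, PBS (2 libraries). UHRF1, a protein that directs maintenance DNA methylation, was depleted for 72 h with a UHRF1 siRNA (3 libraries) against a control siRNA of its own (3 libraries). Every group, controls included, had been exposed for 24 h to human interferon-β (1000 U/ml), and each value is a level under interferon and no untreated baseline was analysed here. The knockout is represented by 1 line and the ASO by 1 sequence, and PBS is not a control oligonucleotide. The study calls its replicates biological, and nothing in the labels says more about their source. The study asks whether SMYD3 holds down the response of these tumour cells to interferon.

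IRFs are transcription factors that bind the interferon-stimulated response element (ISRE). IRF1 activates such sites and IRF2 binds the same sites and is classically their repressor. IRF3, IRF5 and IRF7 lie inactive in the cytoplasm until kinases downstream of nucleic acid sensors and Toll-like receptors phosphorylate them, and IRF3 and IRF7 then switch on interferon genes. IRF9 is the DNA-binding part of the complex ISGF3, through which type I interferon acts on most of its target genes. SOCS1 and SOCS3 are induced by STATs and end the signal: SOCS1 blocks the JAK kinases at interferon receptors, and SOCS3 acts mainly at receptors that contain the IL-6 signal transducer gp130.

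Libraries of the knockout table held 24783605 to 47702859 reads in genes. Those of the SMYD3 siRNA table held 32441991 to 54121262, those treated with ASO or PBS 30792923 to 32045158 and those of the UHRF1 comparison 57588142 to 62921144. The mitochondrial share of reads was 4.82% to 4.88% in the knockout line, against 14.9% to 15.7% in parental cells. With the SMYD3 siRNA it was 5.73% to 6.78%, against 6.63% to 10.2% with its control siRNA. The ASO and UHRF1 siRNA tables held no mitochondrial reads. Of 8 squamous epithelial markers, 7 or 8 averaged at least 1 CPM in every group, and KRT14 was below 1 CPM where 7 did. Summed fibroblast markers came to 482 to 551 CPM with the UHRF1 siRNA, against 101 to 103 CPM with its control siRNA. In the knockout line they came to 12.5 to 14.2 CPM, against 58.6 to 62.2 CPM in parental cells. With the SMYD3 siRNA the sum was 211 to 237 CPM, against 135 to 159 CPM with control siRNA, and with the ASO 84.6 to 103 CPM, against 110 to 115 CPM with PBS. COL1A1 and LUM made up nearly all of these sums, while COL3A1, DCN and PDGFRA stayed below 1 CPM or had no line. The leukocyte marker PTPRC had no line in the knockout table and averaged 0.303 CPM or less in the other groups. Over all groups the summed leukocyte markers came to 0.398 to 14.2 CPM and the endothelial ones to 1.03 to 23.4 CPM. The part of these differences in the results was not tested. In bulk RNA, fewer cells of a type and less RNA per cell cannot be told apart.

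SMYD3 itself had 113, 91.5 and 76.3 normalised counts in the knockout line, against 343, 309 and 314 in parental cells. It stood at 2.61, 2.99 and 2.95 normalised CPM with the SMYD3 siRNA against 16.6, 13.2 and 15.5 with control siRNA, and at 4.19 and 3.28 with the ASO against 22.0 and 21.1 with PBS. It was lower in every depleted library of its 3 comparisons. Whether SMYD3 protein remained in the knockout line cannot be read from these whole-gene counts. UHRF1 had 1.88, 2.69 and 2.10 normalised CPM with the UHRF1 siRNA, against 66.4, 63.0 and 64.1 with its control siRNA. SMYD3 was lower there too (-0.57 ± 0.09, adjusted p = 3.32e-07, edgeR's quasi-likelihood test with Benjamini-Hochberg adjustment). UHRF1 was also lower with the SMYD3 siRNA (log2 fold change -1.68 ± 0.14 SE, adjusted p = 4.24e-07, edgeR). It was higher in the knockout line (0.44 ± 0.03, adjusted p = 9.97e-09, limma) and with the ASO (0.36 ± 0.06, adjusted p = 0.00119, edgeR).

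IRF1, IRF2 and SOCS3 were higher after depletion in all 4 comparisons, and these were 3 of the 8 genes. IRF3, IRF5, IRF9 and SOCS1 were called in both directions over the 4 comparisons. The lower call of SOCS1, in the knockout line, was lost with DESeq2 (adjusted p = 0.143). IRF7 was higher in 3 comparisons and was not called with the SMYD3 siRNA. When the knockout libraries were scaled without mitochondrial genes, IRF3 was called lower (-0.20, adjusted p = 5.77e-04, limma), which is its direction with the SMYD3 siRNA, while IRF1 (0.07, adjusted p = 0.110) and IRF7 (-0.09, adjusted p = 0.0920) were not called. In all, 26 of the 32 tests passed an adjusted p of 0.05. The knockout comparison called 8 of the 8 genes (5 higher and 3 lower), where 84.6% of the 16950 genes tested were called (42.1% higher and 42.5% lower). The SMYD3 siRNA called 5 (3 higher and 2 lower) against 48.5% of 18982 genes (24.2% higher and 24.4% lower). The ASO called 6, all higher, against 21.7% of 18233 genes, 11.3% higher and 10.3% lower. The UHRF1 siRNA called 7, all higher, against 64.7% of 18349 genes, 32.0% higher and 32.7% lower. Beside these backgrounds, 8 of 8 in the knockout is close to the share of all genes.

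The median log2 fold change of the 8 genes was 0.22 in the knockout line, where that of all genes was -0.02. It was 0.05 with the SMYD3 siRNA (all genes -0.02), 0.40 with the ASO (all genes -0.0043) and 0.36 with the UHRF1 siRNA (all genes -0.01). The depleted and control libraries did not overlap for 8 of the 8 genes in the knockout comparison (85.8% of all genes), 5 with the SMYD3 siRNA (56.8%), 6 with the ASO (61.7%) and 8 with the UHRF1 siRNA (68.1%). With 2 libraries against 2, a lack of overlap is common, as the 61.7% shows.

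**Figure D1:**
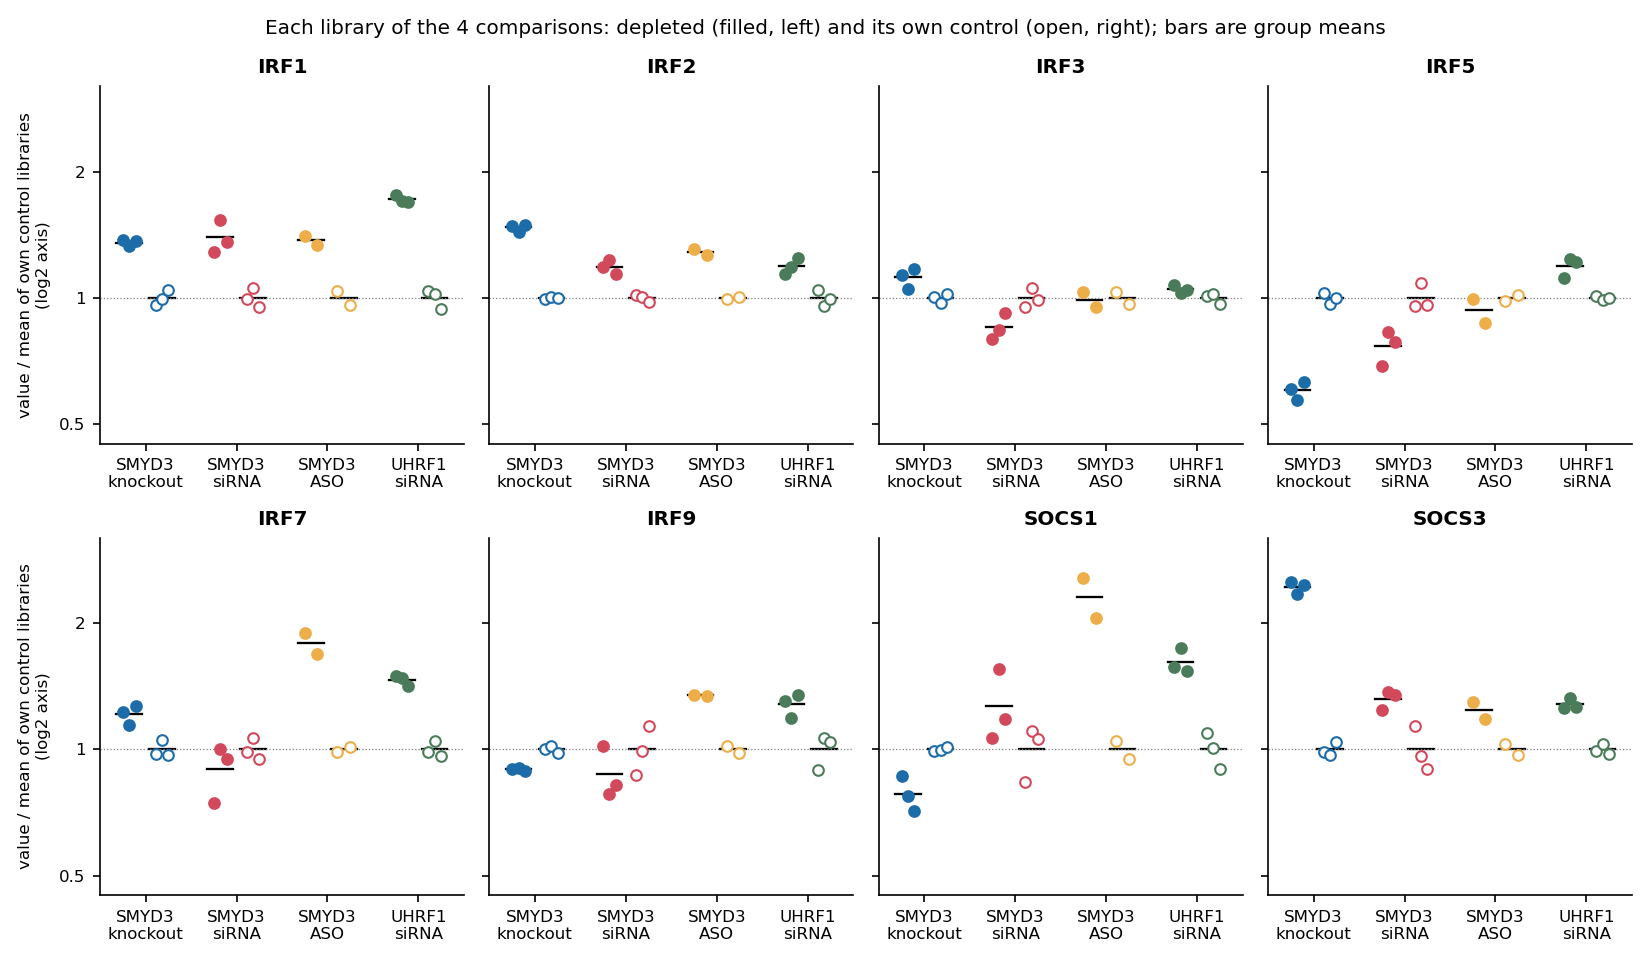
Value of each gene in each library divided by the mean of its own control libraries (log2 axis), with the depleted libraries filled and on the left of each pair, the controls open and on the right, and bars at group means. The depleted libraries of IRF1, IRF2 and SOCS3 sit above their controls in all 4 comparisons, while those of IRF5 and SOCS1 lie below them in the knockout line and above them with the UHRF1 siRNA.

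Promoter sequence was at hand for 5 of the 8 genes, as 9 windows from 250 bases before to 50 bases after an annotated start (RefSeq, GRCh38.p14). They were searched on both strands for GAAA followed after any 2 bases by a second GAAA, the core of the ISRE bound by IRFs and ISGF3, and for TTCNNNGAA, the gamma-activated site (GAS) bound by STAT dimers. Among all 35116 promoter windows of this length, 3.57% held the ISRE letters and 7.66% the GAS letters. The IRF1 window (chr5:132490724-132491023, minus strand) held 1 GAS match, the IRF9 window (chr14:24161015-24161314, plus strand) 1 GAS match, and the SOCS1 window (chr16:11256155-11256454, minus strand) 1 ISRE match. No match overlapped another. The 4 windows of IRF5 and the 2 of SOCS3 held neither run of letters. The SOCS3 windows (chr17:78360876-78361175 and chr17:78359618-78359917, minus strand) do not cover the 5' end of SOCS3 as deposited, at 78360077. The sequence just before that end was not searched. The 3 windows with a match are printed because interferon-β acts through the factors that read these letters, which are in capitals:
IRF1: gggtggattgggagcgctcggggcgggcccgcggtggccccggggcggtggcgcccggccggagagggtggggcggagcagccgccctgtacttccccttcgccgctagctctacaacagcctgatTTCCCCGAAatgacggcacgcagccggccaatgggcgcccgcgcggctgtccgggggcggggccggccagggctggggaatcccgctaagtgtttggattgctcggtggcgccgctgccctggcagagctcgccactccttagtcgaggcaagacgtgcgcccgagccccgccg
IRF9: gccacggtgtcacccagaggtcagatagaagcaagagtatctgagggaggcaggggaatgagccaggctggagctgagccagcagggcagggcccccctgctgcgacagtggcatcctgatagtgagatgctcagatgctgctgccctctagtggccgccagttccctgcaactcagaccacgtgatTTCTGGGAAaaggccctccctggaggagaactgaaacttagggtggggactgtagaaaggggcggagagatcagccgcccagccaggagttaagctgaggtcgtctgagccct
SOCS1: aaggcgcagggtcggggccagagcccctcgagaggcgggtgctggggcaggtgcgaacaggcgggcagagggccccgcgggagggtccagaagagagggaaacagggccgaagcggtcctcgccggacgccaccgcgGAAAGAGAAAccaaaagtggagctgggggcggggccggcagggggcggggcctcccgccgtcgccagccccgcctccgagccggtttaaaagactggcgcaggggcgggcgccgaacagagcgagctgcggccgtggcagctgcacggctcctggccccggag
The first letter of the match lies at -124 from the start in IRF1, -63 in IRF9 and -113 in SOCS1. A match describes the sequence and is no evidence of binding in these cells.

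IRF1 (chromosome 5, 132481609 to 132490777, minus strand, GRCh38 as deposited) drives antigen presentation and guanylate-binding protein genes. In the knockout comparison it had 3522, 3402 and 3502 normalised counts in the knockout line, against 2466, 2549 and 2675 in parental cells. The log2 fold change was 0.44 ± 0.04 (SE, adjusted p = 1.07e-07, limma). All 3 knockout libraries lay above all 3 parental ones, and the lowest of them was well clear of the highest control. IRF1 stood at 281, 336 and 297 normalised CPM with the SMYD3 siRNA, against 217, 231 and 208 with control siRNA (0.48 ± 0.09, adjusted p = 3.05e-04, edgeR). With the ASO it stood at 181 and 172, against 134 and 124 with PBS (0.46 ± 0.06, adjusted p = 1.98e-04). The groups did not overlap in either comparison, and the 3 ways of depleting SMYD3 gave log2 changes between 0.44 and 0.48 as scaled here. The knockout value depends on that scaling: it was 0.16 with upper quartile factors (adjusted p = 0.00223, edgeR) and 0.07 without mitochondrial genes (adjusted p = 0.110, limma), where it was not called. UHRF1 siRNA gave 129, 124 and 124, against 75.8, 74.5 and 68.7 with control siRNA (0.78 ± 0.05, adjusted p = 1.48e-19). This rise was higher than that with the SMYD3 siRNA: the SMYD3 siRNA change minus the UHRF1 siRNA change was -0.30 ± 0.09 (adjusted p = 0.00716, edgeR contrast). In the deposited exons, 22.1% of IRF1 exonic bases are shared with C5orf56 and AC116366.3 on the other strand. The library kit keeps strand, but whether counting used it is not given in the sources used here. C5orf56 averaged 25.2 ± 3.94 CPM with the SMYD3 siRNA and 25.6 ± 0.83 CPM with its control (SD, n = 3 each) and was not called there (adjusted p = 0.364, edgeR). It averaged 15.1 ± 1.00 CPM with the ASO and 7.75 ± 0.43 CPM with PBS (SD, n = 2 each), and 14.01 ± 0.82 CPM with the UHRF1 siRNA and 7.39 ± 0.57 CPM with its control (SD, n = 3 each). Its part in the IRF1 values was not tested.

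IRF2 (chromosome 4, 184387729 to 184474550, minus strand), which competes with IRF1 for the same sites, was also higher in all 4 comparisons. In the knockout comparison it had 1414, 1370 and 1420 normalised counts in the knockout line, against 947, 957 and 952 in parental cells (0.56 ± 0.05, adjusted p = 2.80e-08, limma). IRF2 stood at 69.4, 72.1 and 66.7 normalised CPM with the SMYD3 siRNA, against 59.5, 59.03 and 57.2 with control siRNA (0.24 ± 0.07, adjusted p = 0.0104, edgeR). Neither comparison had an overlapping library. With the ASO the values were 51.6 and 49.9 against 39.3 and 39.7 with PBS (0.36 ± 0.06, adjusted p = 0.00106). In the UHRF1 siRNA libraries they were 34.2, 35.6 and 37.4 against 31.4, 28.7 and 29.9 with its control (0.25 ± 0.06, adjusted p = 2.81e-04). Here too each depleted library was above each control, but with the UHRF1 siRNA the nearest pair was close. In a limma contrast on log2(CPM + 1), with CPM from total reads, the knockout change exceeded that of the SMYD3 siRNA by 0.23 ± 0.07 (adjusted p = 0.00811). The difference did not pass the threshold once mitochondrial genes were left out (0.09 ± 0.07, adjusted p = 0.236). Of the exonic bases of IRF2, none is shared with another gene in the deposited annotation.

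IRF3 (chromosome 19, 49659569 to 49665875, minus strand), the constitutive factor that nucleic acid sensors activate, kept its log2 changes between -0.23 and 0.16. It had 4392, 4073 and 4536 normalised counts in the knockout line, against 3903, 3760 and 3952 in parental cells (0.16 ± 0.04, adjusted p = 0.00309, limma). The SMYD3 siRNA libraries had 124, 130 and 143 normalised CPM, against 148, 164 and 154 with control siRNA (-0.23 ± 0.08, adjusted p = 0.0251, edgeR). The groups were apart in both comparisons. The directions were opposite with the deposited scaling of the knockout table. A limma contrast on log2(CPM + 1), with CPM from total reads, put the knockout change 0.32 ± 0.09 above the siRNA change (adjusted p = 0.00228). On that scale IRF3 had 124, 115 and 129 CPM in the knockout line, against 125, 122 and 129 in parental cells, with overlap. The contrast therefore does not show opposite directions. With upper quartile factors (-0.12, adjusted p = 0.0216, edgeR) or without mitochondrial genes (-0.20, adjusted p = 5.77e-04, limma) IRF3 was called lower in the knockout line too. The difference from the siRNA change was then not called (0.18 ± 0.09, adjusted p = 0.0765, edgeR, and 0.17 ± 0.09, adjusted p = 0.0694, limma). The siRNA call was lost without control replicate 2 (-0.19, adjusted p = 0.127), without SMYD3 siRNA replicate 1 (-0.17, adjusted p = 0.0820) or without SMYD3 siRNA replicate 2 (-0.21, adjusted p = 0.0827). With the ASO IRF3 had 118 and 109 normalised CPM, against 118 and 111 with PBS (-0.01 ± 0.06, adjusted p = 0.916), with overlap. The UHRF1 siRNA libraries had 110, 105 and 107, against 103, 104 and 98.4 with its control (0.07 ± 0.05, adjusted p = 0.211). Neither was called, although the UHRF1 siRNA libraries stood just above their controls. Exons of BCL2L12 on the other strand cover 19.3% of IRF3. BCL2L12 averaged 21.5 ± 1.44 CPM with the UHRF1 siRNA and 46.1 ± 0.68 CPM with its control (SD, n = 3 each), and was called higher in the knockout comparison, at 38.0 ± 3.17 CPM in the knockout line and 34.1 ± 2.53 CPM in parental cells (log2 fold change 0.35, adjusted p = 2.44e-04, limma on the deposited values). Its part in the IRF3 values was not tested.

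IRF7 (chromosome 11, 612553 to 615999, minus strand) is itself induced by ISGF3 and amplifies interferon production in many cells. Its largest rise was with the ASO. With the ASO it stood at 252 and 223 normalised CPM, against 131 and 134 with PBS (0.84 ± 0.06, adjusted p = 1.96e-06, edgeR). After UHRF1 siRNA it stood at 484, 479 and 458, against 319, 338 and 313 with its control (0.55 ± 0.05, adjusted p = 1.51e-14). All depleted libraries lay above all controls in both. The SMYD3 siRNA gave 412, 554 and 526, against 545, 590 and 525 with control siRNA (-0.15 ± 0.11, adjusted p = 0.247). These groups overlapped, and SMYD3 siRNA replicate 1 was the low library: without it the change was -0.02 (adjusted p = 0.887). In the knockout line IRF7 had 5266, 4917 and 5454 normalised counts, against 4200, 4533 and 4161 in parental cells (0.28 ± 0.05, adjusted p = 4.46e-05, limma), and the groups were apart. This call was lost with upper quartile factors (-0.0023, adjusted p = 0.964, edgeR) and without mitochondrial genes (-0.09, adjusted p = 0.0920, limma). The SMYD3 siRNA change was below the ASO change by a difference of -0.99 ± 0.13 (adjusted p = 6.28e-07, edgeR contrast) and below the UHRF1 siRNA change by -0.71 ± 0.11 (adjusted p = 5.68e-06). The knockout change minus the ASO change was -0.69 ± 0.12 (adjusted p = 3.42e-05, limma contrast on log2(CPM + 1) with CPM from total reads).

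IRF5 (chromosome 7, 128937457 to 128950038, plus strand), which acts downstream of MYD88 in Toll-like receptor signalling, was lower with 2 of the 3 ways of depleting SMYD3. It had 307, 289 and 319 normalised counts in the knockout line, against 521, 490 and 507 in parental cells (-0.73 ± 0.07, adjusted p = 1.94e-07, limma). IRF5 stood at 13.3, 16.1 and 15.3 normalised CPM with the SMYD3 siRNA, against 18.5, 21.0 and 18.7 with control siRNA (-0.38 ± 0.09, adjusted p = 0.00394, edgeR). Every depleted library was below every control in both. With the ASO it had 19.1 and 16.8, against 18.8 and 19.5 with PBS (-0.10 ± 0.09, adjusted p = 0.463), and the groups overlapped. After UHRF1 siRNA it had 10.7, 11.8 and 11.6, against 9.65, 9.45 and 9.56 with its control (0.25 ± 0.09, adjusted p = 0.0120), and this call was lost without UHRF1 siRNA replicate 2 (0.22, adjusted p = 0.0514). The SMYD3 siRNA change minus the UHRF1 siRNA change was -0.63 ± 0.12 (adjusted p = 5.32e-05, edgeR contrast). In the knockout comparison the median change of the 670 genes tested on chromosome 7 was 0.26 with the deposited scaling. IRF5 was at -1.01 with upper quartile factors and -1.09 without mitochondrial genes.

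IRF9 (chromosome 14, 24161053 to 24166565, plus strand), the subunit that brings ISGF3 to DNA, was higher after ASO and after UHRF1 siRNA, and lower in the knockout line, by an amount that depends on the scaling. With the ASO it had 51.4 and 51.2 normalised CPM, against 38.9 and 37.4 with PBS (0.43 ± 0.06, adjusted p = 3.00e-04, edgeR). IRF9 had 32.2, 29.4 and 33.3 with the UHRF1 siRNA, against 22.0, 26.3 and 25.8 with its control (0.36 ± 0.07, adjusted p = 8.49e-06). The groups were apart in both. The knockout line had 6177, 6211 and 6089 normalised counts, against 6894, 6989 and 6728 in parental cells (-0.16 ± 0.03, adjusted p = 4.57e-04, limma). The change was -0.44 with upper quartile factors (adjusted p = 9.75e-10, edgeR) and -0.52 without mitochondrial genes (adjusted p = 8.94e-10, limma). With the SMYD3 siRNA the values were 21.9, 16.8 and 17.6 normalised CPM, against 18.7, 21.3 and 24.4 (-0.19 ± 0.11, adjusted p = 0.176, edgeR), and they overlapped; without SMYD3 siRNA replicate 1 the change was -0.30 (adjusted p = 0.0243). The median change of the 444 genes tested on chromosome 14 in the knockout comparison was -0.35 with the deposited scaling, lower than that of IRF9. The part of this shift in the IRF9 value was not tested. The SMYD3 siRNA change of IRF9 minus its ASO change was -0.62 ± 0.15 (adjusted p = 0.00218, edgeR contrast), and minus its UHRF1 siRNA change -0.56 ± 0.14 (adjusted p = 0.00125).

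Counts of IRF9 are uncertain in a way that those of the other genes are not. In the deposited exons 45.5% of its exonic bases are shared with AL136295.5, a gene annotated on the same strand, and how reads in shared exons were counted is not given in the sources used here. AL136295.5 has no line in the knockout and SMYD3 siRNA tables. IRF9 averaged 174 ± 1.19 CPM in the knockout line and 222 ± 3.79 CPM in parental cells (SD, n = 3 each). In the SMYD3 siRNA table it averaged 17.99 ± 3.19 CPM with the siRNA and 22.4 ± 2.67 CPM with control siRNA (SD, n = 3 each), although both sets of controls are interferon-treated HN-6 cells. RNF31, its upstream neighbour, averaged 51.3 ± 1.60 CPM in the knockout line and 64.1 ± 1.94 CPM in parental cells, 34.7 ± 1.55 CPM with the SMYD3 siRNA and 29.4 ± 5.25 CPM with its control, and 3.32 ± 0.36 CPM with the ASO and 2.79 ± 0.11 CPM with PBS. In the SMYD3 siRNA table RNF31 was therefore well above its ASO table level while IRF9 was below its own there. PSME2, another gene near IRF9, differed less between tables. It averaged 327 ± 13.9 CPM in the knockout line and 554 ± 24.6 CPM in parental cells. With the SMYD3 siRNA it averaged 267 ± 10.4 CPM, against 352 ± 23.5 CPM with its control. The cause of the differing IRF9 levels between tables was not tested.

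SOCS1 (chromosome 16, 11254405 to 11256200, minus strand), the inhibitor of JAK kinases at interferon receptors, moved in both directions. By level per exonic length (TPM) it was the least abundant of the 8 genes in 5 of the 8 groups. With the ASO it had 5.06 and 4.05 normalised CPM, against 2.07 and 1.88 with PBS (1.21 ± 0.18, adjusted p = 4.76e-04, edgeR), which rests on 277 reads with the ASO and 127 with PBS. SOCS1 had 8.32, 9.25 and 8.16 with the UHRF1 siRNA, against 5.81, 5.34 and 4.76 with its control (0.69 ± 0.11, adjusted p = 1.60e-07). All depleted libraries were above the controls in both comparisons, and the ASO change was a 2.31-fold rise. With the SMYD3 siRNA the values were 5.81, 8.49 and 6.45, against 4.56, 6.05 and 5.78 (0.34 ± 0.15, adjusted p = 0.0674). Replicate 1 of the SMYD3 siRNA lay within the controls, and without it SOCS1 passed the threshold (0.47, adjusted p = 0.0136), while without replicate 2 the change was 0.18 (adjusted p = 0.347). The knockout line had 72.4, 64.7 and 59.7 normalised counts, against 82.9, 83.6 and 84.6 in parental cells (-0.35 ± 0.15, adjusted p = 0.0382, limma), each below all the controls. This call was lost with DESeq2 on the recovered reads (adjusted p = 0.143) and on leaving out any 1 parental library or knockout replicate 2 or 3 (-0.36 to -0.29, adjusted p = 0.0643 to 0.111). The change was -0.63 with upper quartile factors (adjusted p = 9.93e-04, edgeR) and -0.71 without mitochondrial genes (adjusted p = 3.72e-04, limma). The ASO rise differed from the knockout change (knockout minus ASO -1.24 ± 0.17, adjusted p = 2.26e-06, limma contrast on log2(CPM + 1)). That contrast took CPM from total reads, and its scale shrinks differences of genes this low.

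SOCS3 (chromosome 17, 78356778 to 78360077, minus strand), the inhibitor at gp130 receptors, showed the largest rise among the 8 genes in the knockout line. It had 1718, 1615 and 1695 normalised counts there, against 677, 666 and 717 in parental cells (1.29 ± 0.05, adjusted p = 4.42e-12, limma). SOCS3 had 69.0, 76.4 and 75.1 normalised CPM with the SMYD3 siRNA, against 63.1, 53.8 and 49.95 with control siRNA (0.40 ± 0.09, adjusted p = 0.00175, edgeR). The knockout rise was 2.44-fold and that with the siRNA 1.32-fold, with no overlap in either. With the ASO it had 87.8 and 79.9, against 69.7 and 65.3 with PBS (0.31 ± 0.06, adjusted p = 0.00397). After UHRF1 siRNA it had 85.7, 90.5 and 85.8, against 67.6, 70.4 and 66.5 with its control (0.36 ± 0.05, adjusted p = 1.87e-08). All these libraries again lay above their controls. In limma contrasts on log2(CPM + 1), the knockout change exceeded the SMYD3 siRNA change by 0.78 ± 0.11 (adjusted p = 1.14e-06). It exceeded the ASO change by 0.81 ± 0.12 (adjusted p = 3.73e-06). These contrasts take CPM from total reads, so they are not differences of the changes printed here. The SMYD3 siRNA and ASO changes differed by 0.10 ± 0.11 (adjusted p = 0.532, edgeR contrast).

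**Figure D2:**
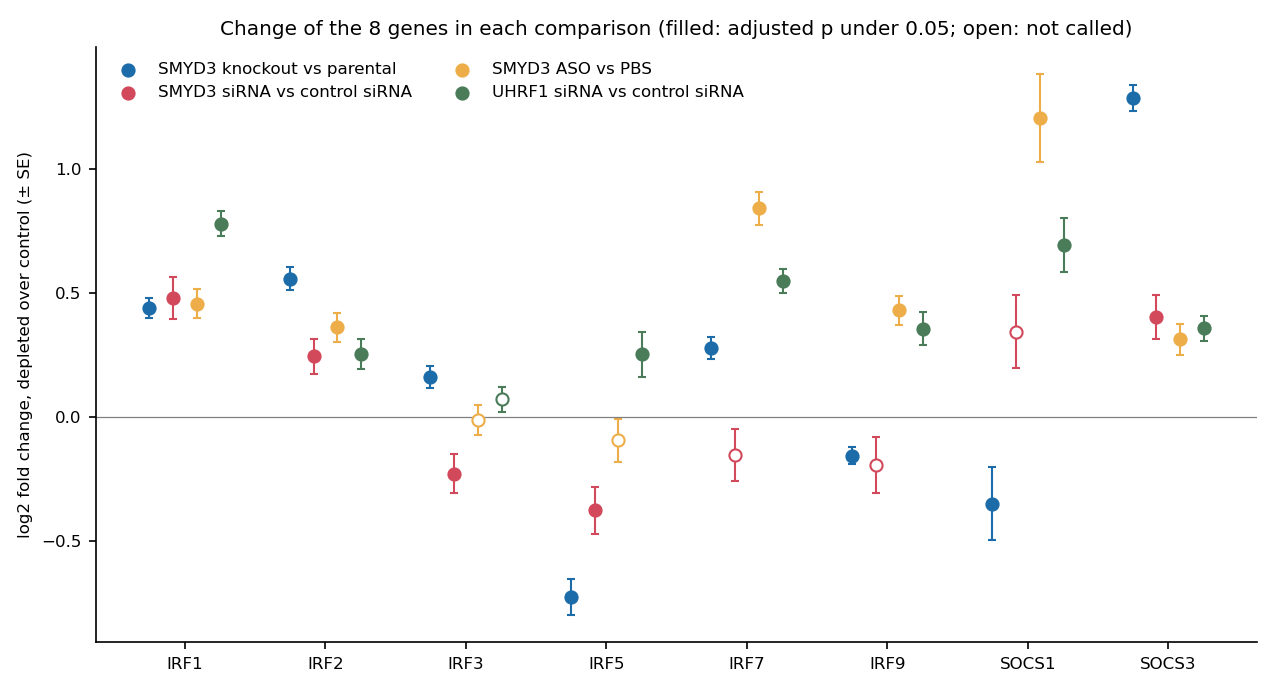
Log2 fold change (depleted over control) with its standard error for the 8 genes in the 4 comparisons, filled where the adjusted p was under 0.05 and open where it was not. IRF1, IRF2 and SOCS3 are above 0 in all 4, SOCS3 reaches 1.29 in the knockout line, and SOCS1 spans -0.35 in the knockout line to 1.21 with the ASO.

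The knockout values depend on how libraries are scaled. With the deposited values 7136 genes were higher and 7211 lower. With upper quartile factors on the recovered reads the split was 5386 higher and 9117 lower, and without mitochondrial genes and with equal totals 4837 higher and 9671 lower. The median of all genes, -0.02 with the deposited values, was then -0.31 and -0.39. IRF2 was at 0.28 and 0.19 and SOCS3 at 1.01 and 0.92 under these scalings, both called. Another scaling shifts all genes of a library alike, so values relative to the median of all genes are nearly fixed by construction and show no stability. They are given as a description. IRF1 was 0.46 above it with all 3 scalings, IRF2 0.58, IRF3 0.18 to 0.19, IRF7 0.30 and SOCS3 1.31. IRF5 was 0.71 below it (-0.71), SOCS1 -0.33 to -0.32 and IRF9 -0.14 to -0.13. The signs of IRF1, IRF2, IRF5, IRF9, SOCS1 and SOCS3 held under each scaling run. IRF1 was not called without mitochondrial genes (0.07, adjusted p = 0.110, limma).

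**Figure D3:**
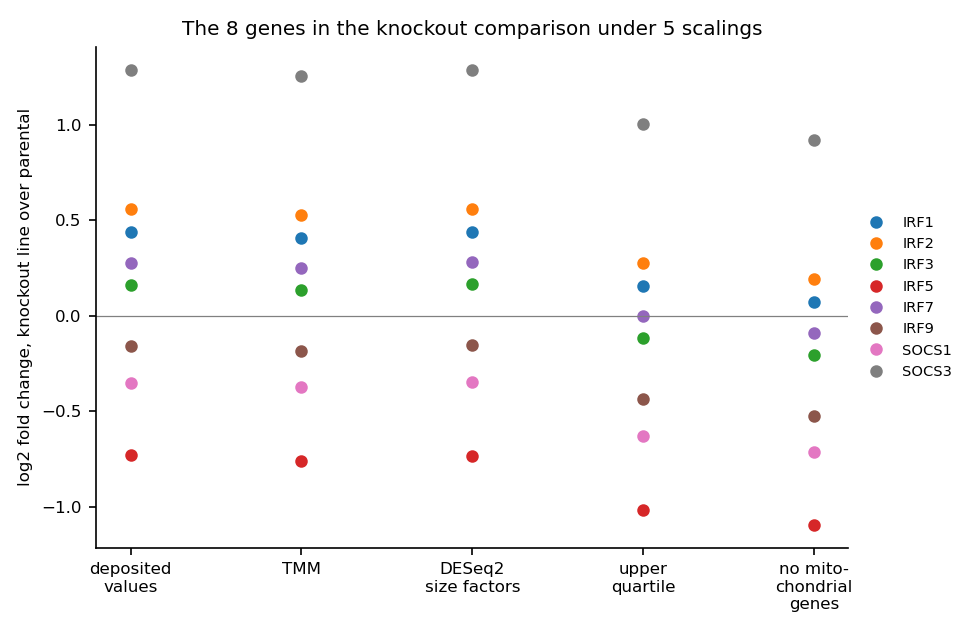
Log2 change of the 8 genes in the knockout line over parental cells under 5 scalings of the libraries. IRF3 and IRF7 lie above 0 with the deposited values, TMM and DESeq2 factors and below 0 with the other scalings, and all 8 genes shift down together.

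The change of each gene was set between pairs of comparisons as a contrast. Where the knockout took part, the contrast used CPM from total reads. Its differences are therefore not those of the knockout changes printed above, which rest on the deposited scaling. The knockout and SMYD3 siRNA changes differed for 6 of the 8 genes (76.5% of all 13284 genes tested did), and the knockout and ASO changes for 5 (72.7%). The SMYD3 siRNA and ASO changes differed for 3, IRF7, IRF9 and SOCS1 (37.9% of 17457 genes). The SMYD3 siRNA and UHRF1 siRNA changes differed for 5, IRF1, IRF3, IRF5, IRF7 and IRF9 (54.7%), and each of these 5 had the lower change with the SMYD3 siRNA. None of these counts stands far from the share of all genes in the same pair. IRF1 differed between none of the 3 pairs of SMYD3 depletion, with differences of -0.11 ± 0.09 (knockout minus SMYD3 siRNA, adjusted p = 0.239), -0.15 ± 0.10 (knockout minus ASO, adjusted p = 0.157) and 0.03 ± 0.10 (SMYD3 siRNA minus ASO, adjusted p = 0.869). A p above the threshold does not show that the changes were alike.

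The contrasts with the knockout also depend on the scaling, as 2 alternatives chosen after seeing the data showed. The 15 mitochondrial genes among those contrasted held up to 16.3% of the reads in a library. Without them the knockout minus SMYD3 siRNA difference was called for IRF1 (-0.25 ± 0.08, adjusted p = 0.00783, limma), and not for IRF2, IRF3 or IRF7 (0.22 ± 0.11 for IRF7, adjusted p = 0.0632). The knockout minus ASO difference of IRF1 was then called as well (-0.33 ± 0.09, adjusted p = 0.00309). The differences of IRF5, SOCS1 and SOCS3 in both pairs, and of IRF7 and IRF9 against the ASO, were called with the main scaling, without mitochondrial genes and with upper quartile factors.

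**Figure D4:**
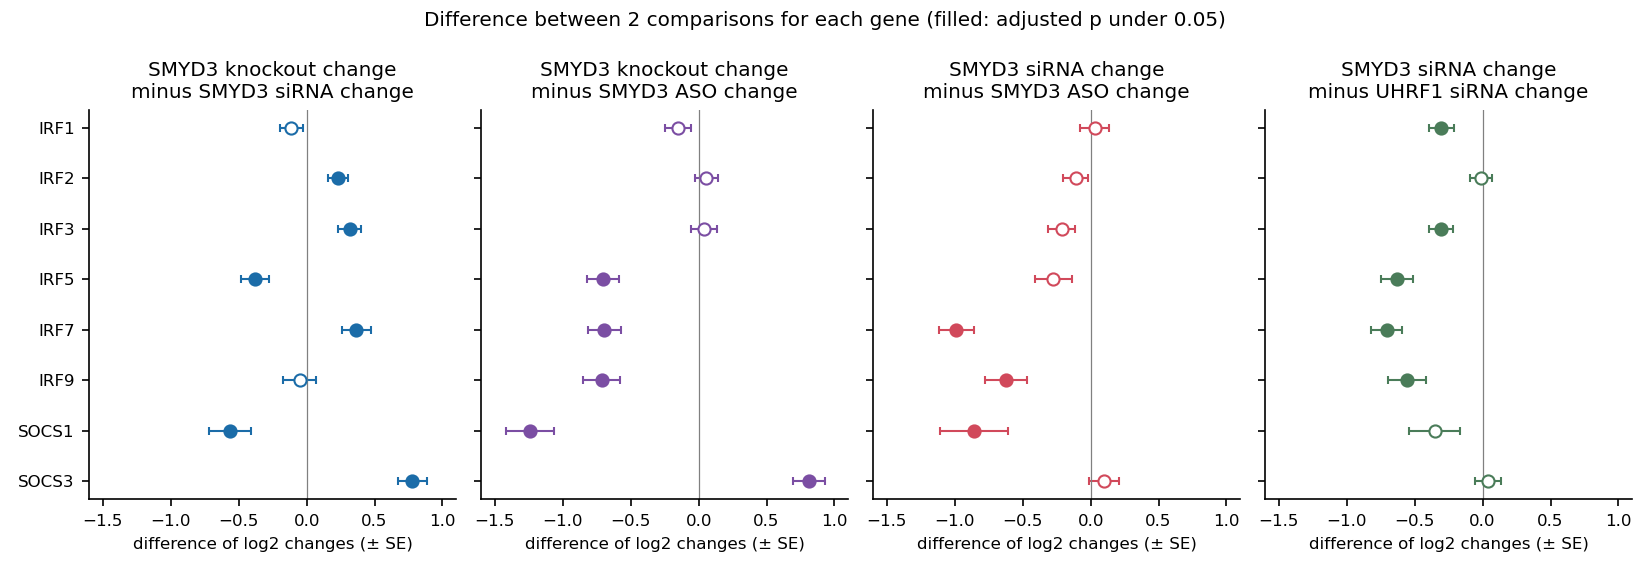
Difference between the log2 changes of 2 comparisons, with its standard error, for each gene in the 4 pairs tested, filled where the adjusted p was under 0.05. Pairs with the knockout line use CPM from total reads. SOCS3 stands at 0.78 and 0.81 in the 2 pairs with the knockout line and close to 0 in the others, and SOCS1 reaches -1.24 for knockout minus ASO.

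Levels per length (TPM from the deposited exonic lengths, without mitochondrial genes) put IRF7 highest in 7 of the 8 groups. IRF7 had 353 ± 28.5 TPM with the ASO and 212 ± 2.41 TPM with PBS (SD, n = 2 each), and 803 ± 26.7 TPM with the UHRF1 siRNA and 563 ± 19.0 TPM with its control (SD, n = 3 each). In parental cells IRF9, at 278 ± 5.11 TPM, stood above IRF7, at 251 ± 12.6 TPM. In the PBS group the order below IRF7 was IRF3 (127 ± 6.70 TPM), SOCS3 (104 ± 5.51), IRF1 (69.6 ± 4.29), IRF2 (54.1 ± 0.059), IRF9 (42.3 ± 1.48), IRF5 (17.8 ± 0.32) and SOCS1 (4.63 ± 0.36), with no neighbours within their spread. With the ASO, SOCS3 (120 ± 7.52 TPM) and IRF3 (117 ± 6.32 TPM) lay within their spread. With the SMYD3 siRNA, IRF9 (21.7 ± 4.14 TPM) overlapped SOCS1 (16.7 ± 2.71 TPM), which overlapped IRF5 (14.3 ± 0.77 TPM). In the knockout line the ranges of IRF2 (57.7 ± 0.60 TPM) and IRF1 (56.5 ± 0.46 TPM) were close but apart. With the UHRF1 siRNA control IRF2 (44.7 ± 2.18 TPM) and IRF1 (43.0 ± 2.02 TPM) could not be separated, and with the UHRF1 siRNA IRF1 (71.9 ± 1.96 TPM) stood above IRF2 (51.9 ± 2.09 TPM). The lowest places went to IRF5 and SOCS1 in all 8 groups. The tables were processed separately, so only the order within a group is read here. That order depends on the deposited lengths, which count all annotated exonic bases, such as 7778 for IRF1 and 3070 for IRF2.

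**Figure D5:**
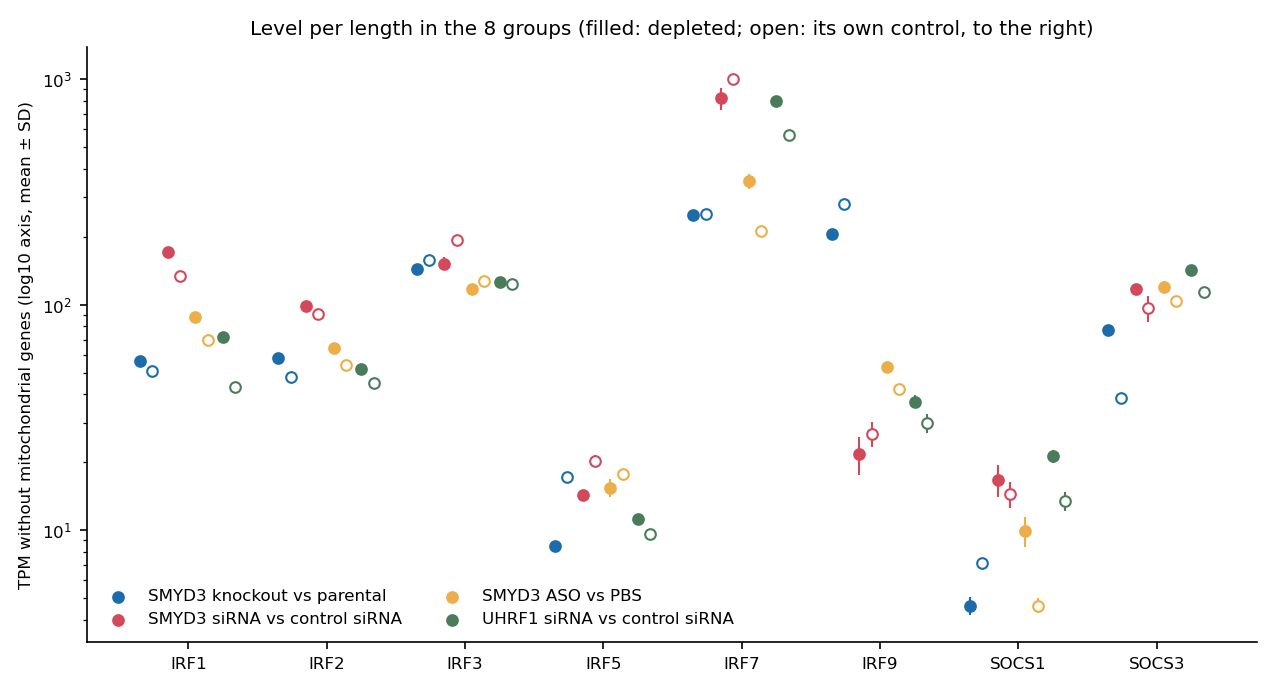
Level per length (TPM without mitochondrial genes, log10 axis, mean and SD) of each gene in the 8 groups, with each depleted group filled and its own control open to the right of it. IRF7 is highest in 7 groups, IRF5 and SOCS1 are lowest in all, and IRF9 stands at 205 and 278 TPM in the knockout table and at 52.8 TPM or less in the others.

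IRF4 and IRF8, IRFs of blood cells, were near 0 reads: IRF8 averaged 23.7 normalised counts in the knockout line and 2.55 in parental cells, which rest on 69 and 8 reads, and was called higher (2.74 ± 0.43, adjusted p = 2.79e-05, limma). With the UHRF1 siRNA IRF8 was called lower (-1.66 ± 0.58, adjusted p = 0.0105, edgeR) on 22 reads, against 76 with its control. The counts of the gene lists that follow are to be read against all genes tested, of which 42.1% were higher and 42.5% lower in the knockout line, 24.2% and 24.4% with the SMYD3 siRNA, 11.3% and 10.3% with the ASO and 32.0% and 32.7% with the UHRF1 siRNA. No list was tested against these shares. Of the 6 other SOCS genes (CISH included), 4 were higher and 1 lower in the knockout line, 2 higher and 1 lower with the SMYD3 siRNA, 1 higher and 1 lower with the ASO and 3 higher and 1 lower with the UHRF1 siRNA. SOCS2, which restrains growth hormone signalling, rose by 1.17 ± 0.09 in the knockout line. SOCS6 fell by 0.92 ± 0.09 with the SMYD3 siRNA, and SOCS7 fell by 0.70 ± 0.07 with the ASO but rose by 0.56 ± 0.06 with the UHRF1 siRNA.

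Upstream of IRF9 and the SOCS genes, the 10 receptors, JAK kinases and STATs were called higher in 8 and lower in 2 in the knockout line, higher in 6 with the SMYD3 siRNA, in 4 with the ASO and in 10 with the UHRF1 siRNA, and lower in none of these 3 (of all genes 42.1%, 24.2%, 11.3% and 32.0% were higher). Their median changes were 0.65, 0.48, 0.13 and 0.55. STAT2, a partner of IRF9, rose by 0.70 ± 0.06 with the ASO and 0.89 ± 0.05 with the UHRF1 siRNA. STAT3, the main inducer of SOCS3, rose by 0.99 ± 0.03 in the knockout line and 0.88 ± 0.09 with the SMYD3 siRNA. STAT2 and STAT3 are named by the size of their change, and their other changes are not printed. Their part in the IRF9 and SOCS3 values was not tested. Of 13 sensors, adaptors and kinases that activate IRF3 and IRF7, 10, 9, 8 and 11 were higher in the knockout, SMYD3 siRNA, ASO and UHRF1 siRNA comparisons, and 1, 2, 1 and 1 lower, beside the same shares of all genes. RIGI, the cytosolic RNA sensor, rose by 3.08 ± 0.07, 0.79 ± 0.09 and 1.38 ± 0.06 in the knockout, SMYD3 siRNA and ASO comparisons and by 0.87 ± 0.05 with the UHRF1 siRNA. It is listed as DDX58 in the files. IKBKE, a kinase of IRF3 and IRF7, rose by 0.69 ± 0.09 with the SMYD3 siRNA and 1.25 ± 0.06 with the UHRF1 siRNA. The IRF3 change stayed between -0.23 and 0.16 across the same comparisons.

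Of 12 other brakes on interferon signalling, 4 were higher and 8 lower in the knockout line, 7 and 1 with the SMYD3 siRNA, 1 and 3 with the ASO and 5 and 5 with the UHRF1 siRNA, where 42.1% and 42.5%, 24.2% and 24.4%, 11.3% and 10.3%, and 32.0% and 32.7% of all genes were. USP18, which holds JAK1 off the interferon receptor, rose by 2.56 ± 0.11 in the knockout line, where SOCS1 was lower, and by 1.60 ± 0.06 with the ASO, where SOCS1 was higher. With the UHRF1 siRNA it was lower (-0.17 ± 0.05) while SOCS1 was higher. PTPN2, a phosphatase of JAK1, rose by 0.63 ± 0.08 with the SMYD3 siRNA, and PTPN6 by 1.03 ± 0.06 with the UHRF1 siRNA. Of the 8 interferon genes, 1 to 4 passed the filter in each comparison. These rest on few reads. With the ASO IFNL1 was called higher on 40 reads, against 6 with PBS. With the UHRF1 siRNA IFNE was called higher and IFNL3 lower. IFNL3, at 0.43 ± 0.05 normalised CPM with the SMYD3 siRNA and 0.20 ± 0.04 with control siRNA (SD, n = 3 each), was called higher (1.07 ± 0.32, adjusted p = 0.0119, edgeR), and IFNE in the knockout line was lower (-0.83 ± 0.29, adjusted p = 0.0158, limma).

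Downstream, 9 genes known to depend on IRF1 were higher in 7, 5, 6 and 7 and lower in 2, 1, 1 and 2 in the knockout, SMYD3 siRNA, ASO and UHRF1 siRNA comparisons, where 42.1%, 24.2%, 11.3% and 32.0% of all genes were higher and 42.5%, 24.4%, 10.3% and 32.7% lower. GBP1, a guanylate-binding protein, rose by 2.11 ± 0.05 in the knockout line, 0.83 ± 0.09 with the SMYD3 siRNA and 1.31 ± 0.05 with the UHRF1 siRNA, and TAP1, a peptide transporter, by 1.07 ± 0.06 with the ASO. The IRF1 change was 0.44 to 0.78 in these comparisons with the deposited knockout values. Of 10 genes known to depend on ISGF3, 9 were higher and 0 lower in the knockout line, 6 and 1 with the SMYD3 siRNA, 10 and 0 with the ASO and 8 and 0 with the UHRF1 siRNA. RSAD2, an antiviral enzyme, rose by 4.85 ± 0.19, 1.28 ± 0.10, 3.11 ± 0.07 and 1.70 ± 0.05. Around SOCS3, 9 IL-6 family ligands, receptors and STAT3 targets were higher in 6, 6, 4 and 5 and lower in 3, 2, 1 and 3. IL6 rose by 2.72 ± 0.10 in the knockout line, 1.84 ± 0.17 with the SMYD3 siRNA, 0.66 ± 0.10 with the ASO and 1.58 ± 0.06 with the UHRF1 siRNA. The median change of the 9 genes was 1.24, 0.75, 0.08 and 0.47 in the same order. SOCS3 rose in the same 4 comparisons, by 1.29, 0.40, 0.31 and 0.36. A link between these genes and SOCS3 was not tested. The knockout counts in these lists hold for the deposited scaling, whose median of all genes lay at -0.02, against -0.39 without mitochondrial genes. Standard errors and calls in these lists are from limma for the knockout and from edgeR's quasi-likelihood test for the rest, with Benjamini-Hochberg adjustment over all genes.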

How the data were processed

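Poly(A) RNA of 22 interferon-treated HN-6 libraries had been sequenced, and the authors deposited 4 gene tables. Per the submitters' processing notes, reads were processed with bcl2fastq and Bowtie on hg38. Versions, the counting tool and any use of strand are not stated in the labels. Raw read counts per gene were deposited by the authors for the siRNA and ASO comparisons. The knockout table holds normalised values deposited by the authors (a signal per gene, counts divided by a factor for each library): 100% of its values were whole multiples of 0.744 to 1.27, within 0.01 of a whole read.

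Knockout values were tested with limma 3.58.1 (trend, robust) on log2(value + 1), for genes at 10 or more in at least 3 libraries, so that fold changes of low genes are understated. Counts were tested with edgeR 4.0.16 (filterByExpr, TMM, robust quasi-likelihood test) in R 4.3.3, and are printed as normalised CPM (reads scaled by the TMM effective library size). P-values were Benjamini-Hochberg adjusted over all genes tested, and genes were called at an adjusted p under 0.05. The limma test was used for the knockout in place of a count test because its table holds no raw counts, and edgeR and DESeq2 1.42.0 were run on the recovered reads as alternatives. Each comparison used its own libraries and controls. Differences between comparisons were contrasts in limma on log2(CPM + 1) where the knockout took part, and in edgeR on counts otherwise. The CPM of the limma contrasts came from total reads, without the deposited factors of the knockout table and without TMM. These differences thus depart from those of the single changes. Upper quartile factors, and leaving out mitochondrial genes, were tried for these contrasts after seeing the data. Standard errors are those of the fits. P-values measure the spread between libraries, with 2 or 3 a group. The scripts were tested on simulated data.

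TPM used the exonic lengths deposited by the authors in the UHRF1 siRNA table. For the knockout, 24 symbols that had turned into dates were named by their Ensembl IDs, and for the SMYD3 siRNA 23588 lines without a symbol (0.849% to 0.917% of reads) kept their IDs. Genes named from a list are drawn from the called ones of largest change, at most 2 per list and comparison; the UHRF1 siRNA values of RIGI and USP18 were added after they were seen. The 8 genes and all gene lists were chosen with earlier results of these data known.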

Additional observations from a re-analysis of the deposited data

Results flagged for a closer look

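These are genes whose change differed between 2 ways of depleting SMYD3, by a contrast of the changes (limma on log2(CPM + 1) with the knockout, edgeR otherwise, Benjamini-Hochberg adjustment over all genes). The limma contrasts used CPM from total reads, not the deposited scaling of the knockout. Between the knockout line and the SMYD3 siRNA, the knockout change was higher for IRF2 (difference 0.23), IRF3 (0.32), IRF7 (0.37) and SOCS3 (0.78) and lower for IRF5 (-0.38) and SOCS1 (-0.56). Between the knockout line and the ASO, it was lower for IRF5 (-0.70), IRF7 (-0.69), IRF9 (-0.71) and SOCS1 (-1.24) and higher for SOCS3 (0.81). Between the SMYD3 siRNA and the ASO, the siRNA change was lower for IRF7 (-0.99), IRF9 (-0.62) and SOCS1 (-0.86). Those of IRF2, IRF3 and IRF7 between the knockout line and the SMYD3 siRNA were not called without mitochondrial genes (0.09, 0.17 and 0.22, adjusted p = 0.236, 0.0694 and 0.0632, limma), an alternative chosen after seeing the data. Such differences were common among all genes, at 76.5%, 72.7% and 37.9% of those tested. The knockout line, siRNA and ASO differ in duration, reagent, control and table, and these cannot be told apart. The 3 knockout libraries come from 1 line, so loss of SMYD3 and other traits of that line cannot be told apart either.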

How the results depend on the processing

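Over all alternatives, 411 values of single genes kept their direction and side of the threshold, 18 lost the call, 8 gained it and 11 changed sign, while 56 counts of called genes among the 8 stayed within 1.5 times. The sign changed for IRF3 (-0.12 with upper quartile factors, -0.20 without mitochondrial genes) and IRF7 (-0.0023 and -0.087) in the knockout line, for IRF3 with the ASO (0.04 without PBS replicate 1, 0.048 without ASO replicate 2 and -0.071 to 0.048 over all libraries left out; not called in any) for the IRF2 difference between the SMYD3 and UHRF1 siRNAs (0.019 without a filter on low counts, not called), and for the knockout minus ASO differences of IRF2 (-0.11 without mitochondrial genes, -0.093 with upper quartile factors) and IRF3 (-0.14 and -0.12), none of them called. Those 2 scalings of the knockout contrasts were chosen after seeing the data: 4 of the 8 genes, against 6, then differed between knockout and SMYD3 siRNA, and 6, against 5, between knockout and ASO. IRF1 in the knockout line lost its call without mitochondrial genes (0.07). The causes were not tested. Leaving out 1 library in turn called 7 to 8 of the 8 genes in the knockout line, 4 to 6 with the SMYD3 siRNA, 6 with the ASO and 6 to 7 with the UHRF1 siRNA. With the SMYD3 siRNA, the uncalled IRF9 change was -0.09 without control replicate 3 and -0.11 without siRNA replicate 2, and that of SOCS1 0.23 without control replicate 1. SOCS1 passed there without a filter (adjusted p = 0.0295, edgeR). Over all genes, the ASO comparison called 2068 higher and 1880 lower with edgeR, and 1313 higher and 964 lower with DESeq2. Replicate numbers are not said to mark a shared day or batch, and the libraries were not taken as paired. Deviations of same-numbered libraries correlated at -0.08 to 0.29 in the knockout table and -0.13 to 0.41 with the SMYD3 siRNA. They correlated at 0.44 with the ASO and -0.09 to 0.09 with the UHRF1 siRNA. In the SMYD3 siRNA and ASO comparisons the library codes place each control next to the depleted library of its number. A pairing in those comparisons was not excluded. With 3 or more pairs, 3 of 6, 3 of 6 and 2 of 6 libraries correlated best with their own number. With the replicate number as a block 7, 6, 6 and 7 of the 8 genes were called, SOCS1 was not called in the knockout line (adjusted p = 0.0530, limma) and was called with the SMYD3 siRNA (adjusted p = 0.0312, edgeR), and the ASO comparison called 3477 genes higher and 3296 lower.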

Other observations

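Over the 4 comparisons, the pattern of log2 changes nearest to that of each gene was looked for among 10952 genes tested in all of them, by Euclidean distance, as a description only. FMR1 lay nearest to IRF9 (distance 0.0562), IGF2BP3 to IRF3 (0.0730) and RBMXL1 to SOCS3 (0.0989). TNFRSF25 lay nearest to IRF5 (0.104), C3orf38 to IRF2 (0.127), TUBB3 to IRF1 (0.157) and SYDE1 to IRF7 (0.186). SOCS1 had no gene as near: the nearest were UBA7 (0.513) and NFKBIA (0.574).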
